A study of Mus musculus with 4 samples.

Results

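The 10 genes described here are immediate early transcription regulators: Fos, Fosb, Fosl2, Jun, Junb, Jund, Egr1, Egr3, Atf3 and Ier2. They were chosen by name from the gene symbols of the deposited count matrices, and all 10 were found among the 32285 genes counted. The study measured single cells from mouse cortex with 10x Genomics 3′ libraries after experimental stroke. Tissue came from 10-month-old male C57BL/6N mice, and each of the 4 libraries pooled the stroke core and about 2 mm of surrounding cortex of 4 to 5 mice. The sham library carries the same tissue label. Myelin was removed, cells were stained for CD31 and CD45, and dead cells were excluded. Stroke surgery is labelled dMCAO, the usual abbreviation for distal middle cerebral artery occlusion. The sham isotype group had sham surgery and an isotype control antibody for 10 weeks, the stroke isotype group had stroke and the same control antibody for 10 weeks, and the stroke anti-VCAM1 and stroke anti-VLA4 groups had stroke and 10 weeks of an antibody against VCAM1, an endothelial adhesion molecule, or VLA4, its integrin partner on leukocytes. Every group has 1 library, so group and library cannot be told apart, no test between groups was possible, and every interval given is a 95% interval for counting error only.

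Immediate early genes are transcribed within minutes of a stimulus, without new protein synthesis, when kinases activate factors already bound at their promoters. FOS-family proteins pair with JUN-family proteins to form AP-1, which binds the TGACTCA motif, while EGR proteins bind GC-rich sites through zinc fingers. In brain tissue they report recent stimulation of neurons, glia and vessels, and they are also known to be induced while tissue is enzymatically dissociated, as it was here, a part in these values that was not tested.

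Promoter sequences of 7 of the 10 genes were found in RefSeq (GRCm38.p6), each from 250 bases before to 50 after the gene's start. They were searched on both strands for TGACG, the core of the cyclic AMP response element, for the AP-1 motif TGACTCA, for its variant TGACATCA, for the EGR motif GCGGGGGCG and for the CArG box of serum response factor. The 5 shown hold a match, as does Fosl2, which is not printed, and capitals mark the matches. All 10 members were lower with anti-VLA4 in microglia-like cells, so that does not set these 5 apart.
Fos: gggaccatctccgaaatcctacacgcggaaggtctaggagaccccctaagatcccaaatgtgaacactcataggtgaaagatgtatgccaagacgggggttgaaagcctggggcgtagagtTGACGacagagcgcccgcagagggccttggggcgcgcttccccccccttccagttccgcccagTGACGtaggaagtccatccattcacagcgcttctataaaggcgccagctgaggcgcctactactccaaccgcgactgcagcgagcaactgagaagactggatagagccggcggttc
Fosb: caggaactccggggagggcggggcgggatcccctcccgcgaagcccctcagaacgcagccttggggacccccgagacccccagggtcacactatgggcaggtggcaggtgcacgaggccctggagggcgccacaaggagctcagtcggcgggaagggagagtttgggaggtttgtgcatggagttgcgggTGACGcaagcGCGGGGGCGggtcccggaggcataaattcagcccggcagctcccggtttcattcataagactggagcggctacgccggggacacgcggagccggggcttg
Jun: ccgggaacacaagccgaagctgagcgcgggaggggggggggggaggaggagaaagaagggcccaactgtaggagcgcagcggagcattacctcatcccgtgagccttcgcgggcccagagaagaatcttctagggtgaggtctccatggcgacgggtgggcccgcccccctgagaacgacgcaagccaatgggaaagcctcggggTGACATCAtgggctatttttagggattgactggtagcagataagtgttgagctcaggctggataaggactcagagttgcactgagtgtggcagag
Junb: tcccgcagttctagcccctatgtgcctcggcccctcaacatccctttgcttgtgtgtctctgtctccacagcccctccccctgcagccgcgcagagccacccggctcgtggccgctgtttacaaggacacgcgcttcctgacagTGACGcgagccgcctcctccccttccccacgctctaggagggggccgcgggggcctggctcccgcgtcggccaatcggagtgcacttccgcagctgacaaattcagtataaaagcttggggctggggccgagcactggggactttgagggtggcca
Atf3: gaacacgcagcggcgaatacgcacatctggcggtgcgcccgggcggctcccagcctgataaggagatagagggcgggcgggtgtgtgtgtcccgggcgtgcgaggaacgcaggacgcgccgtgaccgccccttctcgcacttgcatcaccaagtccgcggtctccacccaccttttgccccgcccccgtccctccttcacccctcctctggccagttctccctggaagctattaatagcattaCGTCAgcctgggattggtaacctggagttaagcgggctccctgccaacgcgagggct

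These windows lie at chr12:85473640-85473939 (plus strand, Fos), chr7:19309996-19310295 (minus, Fosb), chr4:95052173-95052472 (minus, Jun), chr8:84978699-84978998 (minus, Junb) and chr1:191183284-191183583 (minus, Atf3). Fos has TGACG at 129 and at 66 bases before its start, and Fosb has TGACG at 60 and GCGGGGGCG at 50 bases before. Jun has TGACATCA at 45 bases before, Junb has TGACG at 106, and Atf3 has TGACG on the opposite strand, read as CGTCA, at 7. Of the matched promoters not printed, Fosl2 has GCGGGGGCG at 79 bases before its start and Jund has none of the motifs. None of the 7 windows has TGACTCA or a CArG box by these letters. Among 32841 promoters of the same length, 20.8% hold TGACG, 5.2% TGACTCA, 3.62% TGACATCA, 2.91% GCGGGGGCG and 1.63% a CArG box, so TGACG in a window is common.

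The libraries held 1541 (sham isotype), 2891 (stroke isotype), 4751 (anti-VCAM1) and 6361 (anti-VLA4) barcodes, with 10008987 to 34721356 UMIs (unique molecules) in all, and 1516, 2832, 4662 and 6209 cells were kept. Cells were clustered without the members and named from marker genes. The 4 classes with at least 50 cells in every library were compared. They are 5348 endothelial-like cells (9 or 10 of 10 endothelial markers detected in each cluster), 6445 microglia-like cells (9 or 10 of 10), 448 border macrophage-like cells (6 of 8) and 590 T cell-like cells (8 of 8). Il1a, an inflammatory cytokine, is among the 10 leading genes of 4 microglia-like clusters. Of all barcodes, 78 occur in more than 1 library, 59 of them shared by the sham isotype and stroke isotype libraries. In the sham isotype library, cells with a shared barcode hold 24.3% of T cell-like UMIs (4 of 57 cells), 23.2% of border macrophage-like UMIs (7 of 113), 6.10% of microglia-like UMIs (18 of 692) and 5.19% of endothelial-like UMIs (8 of 456). In the other 3 libraries they hold at most 1.83% of a compared class. Ratios that pass or lose the fold without these cells are given both ways.

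Fos, Egr1 and Atf3 were highest in border macrophage-like and microglia-like cells. Levels are given as CPM, the UMIs of a gene scaled to 1000000 UMIs of its class, and are compared between classes for the same gene. Fos ranged over the 4 libraries from 2762 to 3377 CPM in border macrophage-like cells, from 884 to 1659 in microglia-like cells, from 186 to 438 in T cell-like cells and from 72.4 to 157 in endothelial-like cells. These 4 ranges do not overlap, and the order is the same as for Egr1, which was at 763 to 1697 CPM in border macrophage-like, 308 to 1091 in microglia-like, 25.0 to 400.2 in T cell-like and 9.21 to 14.0 in endothelial-like cells, although the border macrophage and microglia ranges of Egr1 overlap and so do those of microglia and T cells. The T cell-like maximum is the sham isotype library, where shared-barcode cells hold 56.1% of Egr1 UMIs, and without them it is 232 CPM, below the microglia-like minimum. Atf3, a stress-induced ATF family factor that pairs with JUN proteins, was at 1462 to 1817 CPM in border macrophage-like and 836 to 1495 in microglia-like cells, against 70.1 to 82.0 in endothelial-like cells.

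The JUN family was broader. Jun was at 2512 to 3271 CPM in border macrophage-like and 2379 to 4332 in microglia-like cells, ranges that overlap, and at 506 to 650 in endothelial-like cells. Jund, the JUN member known for steady expression, differed least between classes, with 1052 to 1452 CPM in border macrophage-like, 1156 to 2034 in microglia-like, 541 to 989 in T cell-like and 524 to 678 in endothelial-like cells. Junb, which is prominent in activated lymphocytes, was at 799 to 1292 CPM in T cell-like cells against 135 to 159 in endothelial-like cells. It was no lower in the myeloid classes, at 1303 to 1765 CPM in border macrophage-like and 996 to 1990 in microglia-like cells.

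Fosl2, a late-acting FOS family member, was ordered differently from Fos. Its level was 65.9 to 156 CPM in T cell-like, 47.4 to 82.7 in border macrophage-like, 23.2 to 43.6 in endothelial-like and 10.0 to 15.3 in microglia-like cells, so microglia-like cells had the lowest level of Fosl2 among the 4 classes in every library. In the 46 NK cell-like cells, pooled over libraries, Fosl2 was at 206 CPM. Fosb, which encodes FOSB and its stable splice form, was at 123 to 371 CPM in microglia-like and 7.26 to 34.8 in endothelial-like cells. Ier2, a small nuclear regulator, was at 614 to 974 CPM in border macrophage-like cells, and its microglia-like (153 to 414), T cell-like (156 to 296) and endothelial-like (187 to 256) ranges overlap. Egr3, an EGR family factor best known in neurons and lymphocytes, was rare, with 19.1 to 40.6 CPM in border macrophage-like, 4.41 to 18.5 in microglia-like and 1.96 to 3.93 in endothelial-like cells.

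In microglia-like cells the members were lower in both antibody libraries than in the stroke isotype library, and most were also lower in the stroke isotype library than in the sham isotype library. A log2 ratio is taken of CPM with a pseudocount of 1 CPM, and a gene is called past the fold at 0.5 or more in either direction, if it has at least 50 UMIs in the 2 libraries. Over the 3 comparisons none of the 10 members was past the fold upward in this class, where 2.98%, 2.03% and 2.51% of all genes were. Downward, 2 of 10 were past the fold for stroke isotype over sham isotype, where 2.88% of 10678 genes were. For anti-VCAM1 over stroke isotype it was 3 of 10, against 1.67% of 11166 genes, and for anti-VLA4 over stroke isotype 9 of 10, against 2.81% of 11392 genes. The median log2 ratios of the members were -0.38, -0.41 and -0.81, and those of all genes -0.04, 0.03 and 0.06. Both antibody comparisons use the same stroke isotype library.

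Among the FOS family, Fos (ENSMUSG00000021250) was at 1659 CPM in the sham isotype library, 1517 in stroke isotype, 996 in anti-VCAM1 and 884 in anti-VLA4. The antibody libraries stood clearly below the other two. The log2 ratio was -0.13 for stroke isotype over sham. For the antibodies the ratios were -0.61 (-0.64 to -0.57), anti-VCAM1, and -0.78 (-0.81 to -0.74), anti-VLA4. Fosb (ENSMUSG00000003545) was at 371, 279, 123 and 145 CPM in the same order of libraries. Anti-VCAM1 was the lowest here, the only member of the 10 for which that held. Its log2 ratios were -0.41, -1.17 (-1.28 to -1.08) and -0.94 (-1.03 to -0.86). Fosl2 (ENSMUSG00000029135), with 69 to 142 UMIs a library, was at 13.5, 15.3, 13.01 and 10.0 CPM. The ratio for anti-VLA4 was -0.56 (-0.96 to -0.26), and the intervals of the others include 0.

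Among the JUN family, Jun (ENSMUSG00000052684) was at 4332, 3422, 2634 and 2379 CPM, Junb (ENSMUSG00000052837) at 1990, 1480, 1375 and 996, and Jund (ENSMUSG00000071076) at 2034, 1629, 1388 and 1156. Each gene descends in the order sham isotype, stroke isotype, anti-VCAM1, anti-VLA4. For stroke isotype over sham the log2 ratios were -0.34, -0.43 and -0.32, all short of the fold. For anti-VLA4 they were -0.52, -0.57 and -0.49, so Jund lay just outside the fold and Jun just inside.

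Egr1 (ENSMUSG00000038418), a zinc-finger factor of the earliest response, was at 1091, 736, 502 and 308 CPM. It is past the fold in all 3 comparisons, with log2 ratios of -0.57 (-0.62 to -0.52), -0.55 (-0.60 to -0.50) and -1.25 (-1.31 to -1.20). Egr3 (ENSMUSG00000033730) had 95, 118, 92 and 59 UMIs, or 18.5, 12.7, 9.13 and 4.41 CPM, and a ratio of -1.34 (-2.0 to -1.06) for anti-VLA4. Shared-barcode cells hold 23.2% of its UMIs in the sham isotype library, and without them the stroke isotype ratio is -0.23 in place of -0.51. Atf3 (ENSMUSG00000026628) was at 1396, 1495, 1065 and 836 CPM, one of 2 members, with Fosl2, that were higher in the stroke isotype than in the sham isotype library. The Atf3 ratios were 0.10, -0.49 and -0.84. Ier2 (ENSMUSG00000053560) was at 414, 296, 262 and 153 CPM, with ratios of -0.48, -0.18 and -0.95. Of these 4 genes only Atf3 departs from the descending order of the JUN family.

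**Figure D1:**
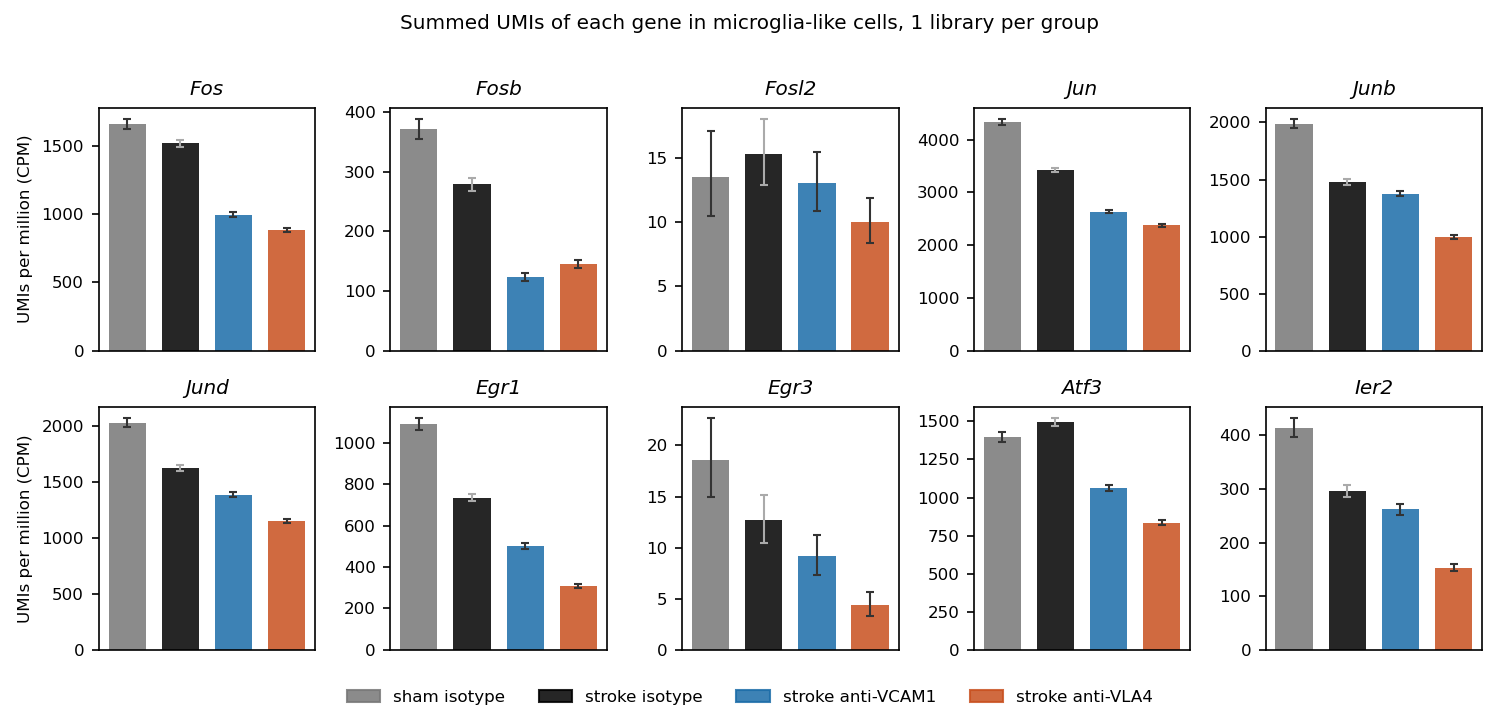
Level of each member in microglia-like cells (y axis, CPM) in each library, 1 bar per library with a 95% Poisson interval for counting error. The anti-VLA4 bar is the lowest for 9 of 10 genes, and for Fosb the anti-VCAM1 bar (123 CPM) is the lowest.

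For Fos, Egr1 and Ier2 the same order appeared when every cell was thinned to 1000 UMIs, so that depth per cell is equal. The share of microglia-like cells with a Fos UMI was then 48.9%, 47.5%, 33.0% and 29.0% in sham isotype, stroke isotype, anti-VCAM1 and anti-VLA4, against unthinned shares of 67.9%, 64.1%, 49.6% and 43.0%. For Egr1 the thinned shares were 45.0%, 34.0%, 23.5% and 15.1%, and for Ier2 23.4%, 18.7%, 15.3% and 9.21%. For these 3 genes the share of cells as well as the summed level was lowest with anti-VLA4. Between 3 and 37 cells per library were too shallow to thin. After thinning, 3.94% to 5.79% of endothelial-like cells had a Fos UMI and 0.227% to 1.52% an Egr1 UMI, all below the microglia-like shares. Ier2 gives no such reference, since 14.3% to 22.9% of endothelial-like cells had a UMI of it, above the 9.21% of microglia-like cells in anti-VLA4. Before thinning, the median depth of microglia-like cells was 7341.5, 6093, 5312 and 5192 UMIs and of endothelial-like cells 3801, 3725, 3869.5 and 4172. Microglial depth thus descends in the same library order as most members.

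Counted over the 10 genes, a thinned microglia-like cell of the sham isotype library had a UMI of 4.33 members on average, and 51.5% of cells had at least 5. The means were 3.91, 3.16 and 2.61 in the stroke isotype, anti-VCAM1 and anti-VLA4 libraries, with at least 5 members in 40.7%, 27.6% and 20.0% of cells. Cells with none made up 4.35%, 6.31%, 11.9% and 19.3%. Egr1 was found more often in cells that had Fos. In the sham isotype library 58.8% of Fos-positive cells had an Egr1 UMI, against 31.8% of Fos-negative cells, and in anti-VLA4 the shares were 36.3% and 6.40%.

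**Figure D2:**
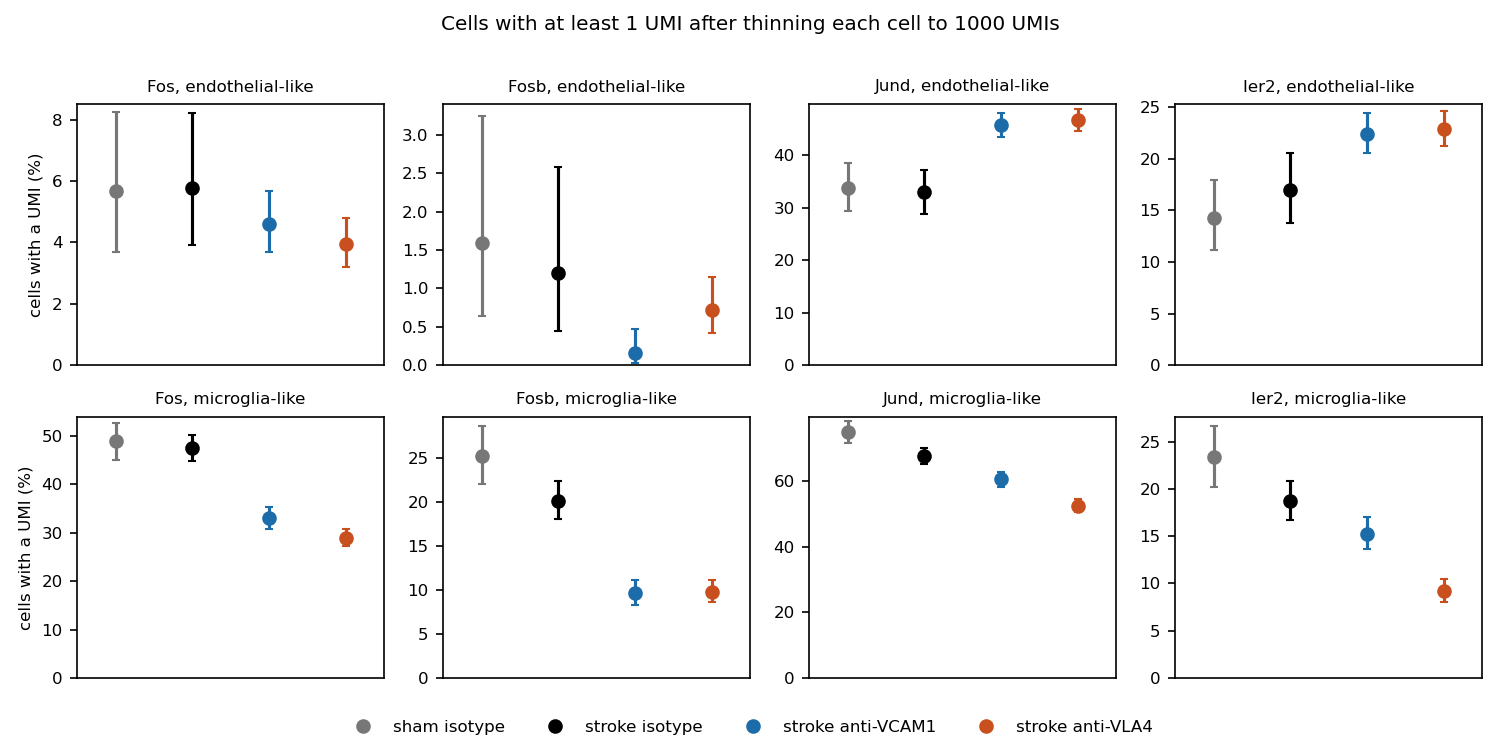
Share of cells with at least 1 UMI (y axis, percent) of Fos, Fosb, Jund and Ier2 after thinning each cell to 1000 UMIs, with 95% Clopper-Pearson intervals, for endothelial-like (upper) and microglia-like cells (lower) in each library. Jund reaches 45.7% and 46.7% of endothelial-like cells in the antibody libraries against 32.9% in stroke isotype, while in microglia-like cells it covers 60.5% and 52.4% against 67.6%.

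Microglia-like cells formed 8 clusters that carry the members unequally, and the libraries drew on them in different proportions. Cluster 1 had 2335 CPM of Fos, 1201 of Egr1, 4647 of Jun and 513 of Ier2 over all libraries, and a summed level of 6211 CPM for 7 cytokine-state genes such as Il1b, Tnf and Ccl3. Cluster 2 had 257 CPM of Fos, 65.6 of Egr1, 1332 of Jun and 46.2 of Ier2, with a cytokine-state sum of 1138 CPM. Cluster 1 was thus above cluster 2 both in these members and in cytokine genes. Cluster 1 held 37.1%, 31.1%, 23.0% and 14.6% of the class in sham isotype, stroke isotype, anti-VCAM1 and anti-VLA4. Cluster 2 held 11.6%, 15.1%, 21.9% and 30.3%. Cluster 9, where Fosb (559 CPM) and Atf3 (2264 CPM) peaked, held 15.6%, 19.1%, 13.8% and 8.54%, so clusters 1 and 9 took a smaller share and cluster 2 a larger one with anti-VLA4. Most stroke isotype cells of this class were in clusters 1, 9 and 2, and most anti-VLA4 cells in clusters 2, 6 and 1.

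**Figure D3:**
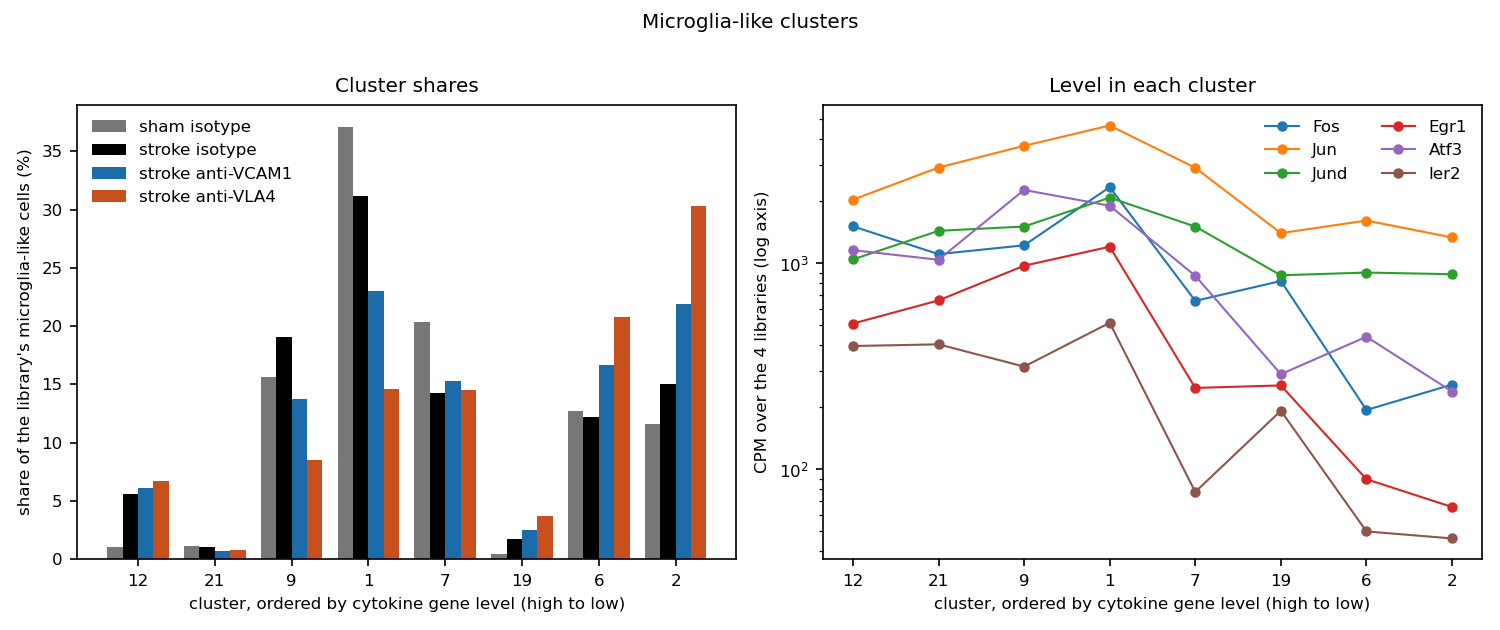
Left, share of each library's microglia-like cells in each cluster (y axis, percent). Right, level of 6 members in each cluster over all libraries (log y axis, CPM), with lines only joining the points of a gene. Clusters are ordered from high to low cytokine gene level, and cluster 2, at the far right, holds 30.3% of anti-VLA4 cells and has the least Egr1 (65.6 CPM).

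With the cluster mix held fixed, 1 of 10 members stayed past the fold for anti-VCAM1 (Fosb, -0.89) and 1 for anti-VLA4 (Egr3, -0.57), against 3 and 9 without this step. In that setting 3.22% and 3.77% of all genes were past it in either direction. Egr1 for anti-VLA4 was then at -0.50, Fosb at -0.33, Ier2 at -0.30 and Fos at -0.18. For anti-VCAM1, Fos was at -0.32, Egr1 at -0.22, Ier2 at 0.11 and Junb at 0.08. For stroke isotype over sham the count remained 2 of 10. Lower levels were also seen inside clusters. Of 6 clusters with enough UMIs, Fos, Junb, Jund, Egr1, Atf3 and Ier2 were lower with anti-VLA4 in 6 of 6, with Egr1 ratios from -1.16 to -0.31, and Fosb and Jun in 5 of 6. With anti-VCAM1, Fos, Fosb and Jun were lower in 6 of 6. For stroke isotype over sham, Fosb, Jun, Junb, Jund, Egr1 and Ier2 were lower in 5 of 5 clusters. In cluster 1, Egr1 was at 1704, 1150, 1087 and 930 CPM in the order of libraries, and Fos at 2632, 2376, 2064 and 2306. Within that cluster Egr1 kept the descending order, and Fos did not.

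Related genes were counted in the same way. Of all genes in microglia-like cells, 2.98%, 2.03% and 2.51% were past the fold upward for stroke isotype, anti-VCAM1 and anti-VLA4. Downward it was 2.88%, 1.67% and 2.81%. Of the other AP-1 and EGR family genes, 17 had enough UMIs in microglia-like cells; 1 was past the fold downward for stroke isotype (Atf4, -0.65), 1 for anti-VCAM1 (Egr2, -0.66) and 3 for anti-VLA4, among them Egr2 (-0.98) and Batf (-0.77), and none upward. Of 28 upstream kinases and SRF, ELK and CREB factors, 1, 0 and 1 were past the fold downward and none upward; the last was Map3k8 (-0.64), a kinase of the inflammatory MAPK cascade. Among other immediate early and feedback genes, 5 of 25 were past the fold downward for stroke isotype, with Dusp6 at -0.81, Zfp36, which promotes decay of cytokine mRNAs, at -0.64 and Cebpb at -0.58. For anti-VCAM1, 3 of 27 were past it upward, Myc (0.55) among them, and none downward. For anti-VLA4, 10 of 28 were past it downward, including Gadd45b (-0.88), Ier3 (-0.80) and the MAPK phosphatase Dusp1 (-0.65), and 2 upward. Of the AP-1 target genes, 2 of 9, 1 of 11 and 1 of 10 were past it upward and 1, 1 and 2 downward. Among these Ccl2, a chemokine, was past the fold downward for stroke isotype (-0.55) and for anti-VLA4 (-0.88).

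Endothelial-like cells, the other large class, had members on both sides of 0. Fosb and Fos were lower in both antibody libraries than in stroke isotype, while Jund, Ier2 and Jun were slightly higher, short of the fold. Of 9 members with enough UMIs, 2 were past the fold downward for stroke isotype over sham, where 4.88% of 8362 genes were, 2 for anti-VCAM1 (11% of 10042 genes) and 3 for anti-VLA4 (13.3% of 10410 genes). These were Fosb and Fosl2, then Fos and Fosb, then Fos, Fosb and Egr1. None was past it upward, where 4.53%, 3.98% and 4.69% of all genes were. These counts depend on how cells are weighted. With each cell thinned to 1000 UMIs, 7 members had enough UMIs for the antibody comparisons, and 2 were past the fold upward and 0 downward in each, when 25.7% and 28.5% of all genes were past it in either direction. Thinned ratios for anti-VCAM1 and anti-VLA4 were 0.58 and 0.62 for Jund, 0.52 and 0.53 for Ier2, and -0.14 and -0.06 for Fos. As a mean over cells, 1 was upward and 2 downward for anti-VCAM1, and 2 upward and 2 downward for anti-VLA4. The medians of the members, -0.20, 0.02 and 0.05, hide this split. Those of all genes were -0.03, -0.06 and -0.07.

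Fos in endothelial-like cells was at 157 CPM in sham isotype, 118 in stroke isotype, 72.4 in anti-VCAM1 and 79.8 in anti-VLA4, the antibody libraries being the 2 lowest. Its log2 ratios were -0.40 (-0.65 to -0.17), -0.70 (-0.92 to -0.50) and -0.56 (-0.76 to -0.37). Few cells carried it, for the 10 cells with most Fos held 59.1%, 47.2%, 26.3% and 24.3% of its UMIs. The class had 456, 536, 1920 and 2436 cells, so these shares cannot be compared between libraries. With the highest 3 cells of each library left out, the anti-VCAM1 ratio was -0.54 and the anti-VLA4 ratio -0.39. After thinning, 5.67%, 5.79%, 4.61% and 3.94% of cells had a Fos UMI, with overlapping intervals. In the sham isotype library, shared-barcode cells hold 22.2% of Fos UMIs, and without them sham is at 129 CPM and the stroke ratio at -0.15.

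Fosb, at 34.8, 19.6, 7.26 and 9.46 CPM from 71, 45, 63 and 115 UMIs, followed Fos. The ratios were -0.79 (-1.40 to -0.27), -1.32 (-2.01 to -0.85) and -0.98 (-1.56 to -0.52), and without shared-barcode cells the first was -0.44. Fosl2 was at 43.6, 29.3, 23.2 and 30.5 CPM, with a stroke ratio of -0.56 (-1.06 to -0.10) and antibody ratios of -0.32 and 0.06. Here the sham isotype library stands above the other 3. Egr1 was at 12.3, 14.0, 12.8 and 9.21 CPM from 25, 32, 111 and 112 UMIs, and its anti-VLA4 ratio of -0.55 has an interval that reaches 0 (-1.18 to 0.01). The ratio turned to 0.25 without the highest 3 cells of each library. Egr3 had 4, 9, 18 and 32 UMIs, too few for a ratio.

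Jund was at 524, 555, 678 and 670 CPM, Ier2 at 187, 200.4, 251 and 256, and Jun at 650, 506, 552 and 584. For Jund and Ier2 the antibody libraries are the 2 highest, and for Jun they lie between stroke isotype and sham. The anti-VCAM1 and anti-VLA4 log2 ratios were 0.29 (0.20 to 0.38) and 0.27 (0.19 to 0.36) for Jund, 0.33 (0.18 to 0.48) and 0.35 (0.21 to 0.50) for Ier2, and 0.13 and 0.21 for Jun. Thinned shares were also higher in both antibody libraries, with Jund in 33.8%, 32.9%, 45.7% and 46.7% of cells and Ier2 in 14.3%, 17.0%, 22.4% and 22.9%. Junb, at 159, 139, 141 and 135 CPM, and Atf3, at 70.1, 72.9, 82.0 and 75.5, differed from stroke isotype by less than counting error in both antibody libraries.

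**Figure D4:**
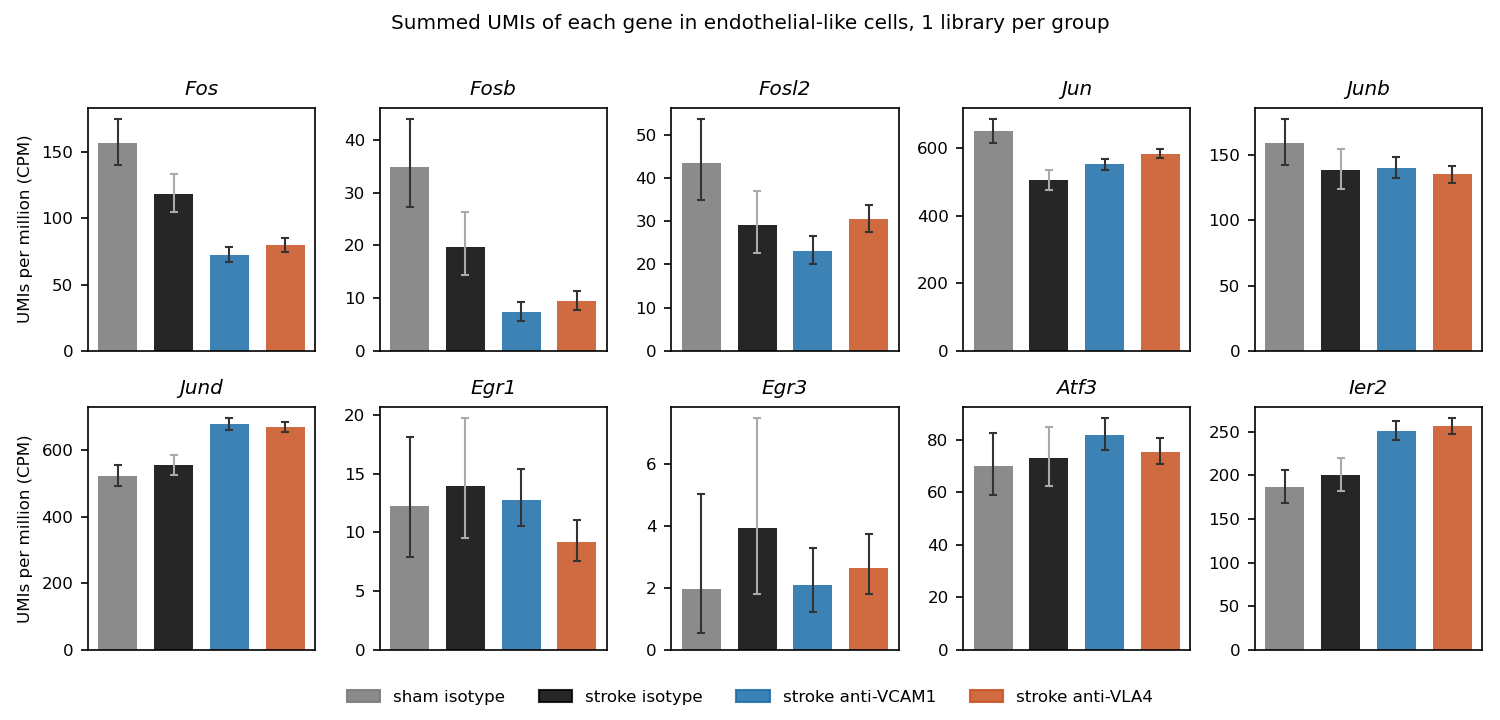
Level of each member in endothelial-like cells (y axis, CPM) in each library, 1 bar per library with a 95% Poisson interval for counting error. Fos and Fosb are lowest in the antibody libraries (72.4 and 79.8 CPM for Fos), and Jund and Ier2 are highest there.

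Several measures of the endothelial-like class moved with these ratios. Genes with a short genomic span, such as Jund (1668 bases) and Ier2 (1522 bases), tended to be higher in the antibody libraries, and with that trend over span removed the Jund ratios were 0.01 and -0.02, the Ier2 ratios 0.05 and 0.06, and the Jun ratios -0.15 and -0.07. Cluster 0 held 55.7%, 44.6%, 25.8% and 24.2% of the class. Cluster 4, low in the nuclear RNA Malat1 and high in Jund (846 CPM) and Ier2 (364 CPM), held 3.95%, 7.46%, 26.8% and 29.1%. Without clusters low in Malat1, the anti-VCAM1 and anti-VLA4 ratios were 0.23 and 0.18 for Jund, 0.18 and 0.25 for Ier2, and -1.12 and -0.89 for Fos. Within clusters, Ier2 was higher in 5 of 5 in both antibody comparisons, from 0.00 to 0.56 for anti-VLA4, and Jund in 4 of 5. In cluster 0 the Ier2 levels were nearly equal, at 167.7 CPM in stroke isotype, 168.6 in anti-VCAM1 and 167.7 in anti-VLA4. With the cluster mix held fixed, 3, 2 and 2 members were past the fold, all downward, against 8.60%, 9.46% and 11.2% of all genes in either direction. The antibody ratios were then 0.11 and 0.09 for Jund, 0.12 and 0.15 for Ier2, -0.66 and -0.51 for Fos and -1.25 and -0.91 for Fosb. Microglial RNA was gauged from defining markers, a narrower set than the 10 used for naming. These were at 17.2, 120, 41.0 and 38.0 CPM in this class, or 0.35% to 2.58% of their level in microglia-like cells. All 10 markers summed to 810, 1135, 1041 and 1021 CPM, against 15626 to 16462 in microglia-like cells. At the share of the defining markers, microglial Egr1 would be 19.0 CPM in the stroke isotype library. Endothelial-like cells had 14.0 there, so Egr1 was not detectable above that level. For Fos the same share would be 5.81, 39.1, 8.19 and 6.79 CPM of the 157, 118, 72.4 and 79.8 measured, and for Fosb 1.30, 7.18, 1.01 and 1.11 CPM of 34.8, 19.6, 7.26 and 9.46. The share is highest in the stroke isotype library, the reference of both antibody comparisons. There the 3 cells with most of the defining markers held 66.9% of those UMIs. In sham isotype, anti-VCAM1 and anti-VLA4 the top 3 cells held 17.1%, 27.8% and 13.6%. The part of microglial RNA in the lower Fos and Fosb ratios was not tested.

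A cluster of 1298 cells led by arterial genes (Gkn3, Vegfc and Bmx) and holding all endothelial markers stayed unnamed by the marker rule, and its levels of the FOS, EGR and ATF members were above those of the endothelial-like class in the sham isotype library. Fos was at 823, 438, 199 and 217 CPM there, Egr1 at 161, 48.2, 19.1 and 34.3, and Atf3 at 240, 100.1, 72.8 and 92.2. All 3 genes were highest in sham isotype and lower in both antibody libraries than in stroke isotype. The cluster had 93, 109, 463 and 633 cells in the same order. The part of shared-barcode cells in these values was not tested. Jund, at 789, 776, 738 and 679 CPM, differed little. With this cluster counted as endothelial-like, 5 members were past the fold downward for stroke isotype over sham, among them Egr1 (-0.94), Fosb (-0.81), Fosl2 (-0.67) and Fos (-0.64), against 8.51% of all genes in either direction. For anti-VCAM1 it was 4 members (13.2% of genes) and for anti-VLA4 3 (15.4%).

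Around the members, endothelial-like cells had other AP-1 or EGR family genes past the fold in both directions. It was 1 up and 1 down of 11 for stroke isotype and 1 up and 2 down of 15 for anti-VCAM1. For anti-VLA4 it was 2 up and 3 down of 16, with Maff at 0.60. Of all genes, 4.53%, 3.98% and 4.69% were past the fold upward in the same order, and 4.88%, 11% and 13.3% downward. The upstream list gave 0 up and 3 down of 26, 2 up and 4 down of 29 and 1 up and 3 down of 29, with Mrtfa, an SRF coactivator, at -0.65 for anti-VCAM1 and Crem, a CREB family gene, at 0.63 for anti-VLA4. Of 24 other immediate early and feedback genes, 6 were past the fold downward for stroke isotype and 1 upward, with Dusp1 at -0.82, Zfp36 at -0.66 and Btg2 at -0.51. Upward, 7 of 29 were past it for anti-VCAM1 and 11 of 29 for anti-VLA4, and none downward in either. The matricellular genes Ccn1 and Ccn2 were at 1.05 and 0.71 for anti-VCAM1 and at 0.84 and 0.83 for anti-VLA4, and Cebpd, a C/EBP factor, at 1.00 and 0.89. The medians of this list, 0.34 and 0.41, were 0.06 and 0.15 with the span trend removed. Of the AP-1 targets, 1 of 5, 0 of 6 and 0 of 6 were past the fold upward and 1 downward in each comparison.

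The 2 smaller classes rest on 57 to 234 cells a library. In border macrophage-like cells the antibody libraries differed little from stroke isotype in the summed level of Fos, at 3377, 2801, 2762 and 2781 CPM. After thinning, 84 of 110, 129 of 178, 35 of 55 and 51 of 86 cells had a Fos UMI. Cells with no member made up 1.82%, 3.93%, 7.27% and 11.6%. Egr1 was at 1697, 1055, 1030.4 and 763 CPM and Ier2 at 974, 648, 743 and 614, both highest in sham isotype. Of 10 members, 2 were past the fold downward for stroke isotype over sham (8.33% of all genes), Egr1 at -0.69 (-0.80 to -0.58) and Ier2 at -0.59 (-0.73 to -0.44), and without shared-barcode cells these were -0.55 and -0.61. For anti-VCAM1 it was 1 of 10 (10.4% of genes), Fosl2 at -0.79 (-1.62 to -0.07), and for anti-VLA4 1 of 10 (14.2%), Egr3 at -0.97 (-2.16 to 0.01), shares near those of all genes. None was past it upward in the 3 comparisons (6.9%, 9.83% and 9.66% of genes). Endothelial markers summed to 39.4, 30.7, 345 and 1959 CPM in this class, against 20101 to 21182 CPM in endothelial-like cells, and their part in these values was not tested.

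In T cell-like cells Jun was at 1309 CPM in sham isotype, 415 in stroke isotype, 548 in anti-VCAM1 and 267 in anti-VLA4, and Egr1 at 400.2, 91.8, 79.1 and 25.0. The sham isotype library stands far above the others for both. Of 9 members, 6 were past the fold downward for stroke isotype over sham, against 20% of all genes, with Egr1 at -2.11 and Jun at -1.66. Shared-barcode cells hold 74.5% of sham Jun UMIs, and without these 4 cells Jun is at 440 CPM in sham and its ratio at -0.06, with Egr1 at -1.31, Fosb at 0.12 in place of -0.96 and Atf3 at 0.39 in place of -0.56. Jund is at -0.22 in place of -0.71, Fos at -0.01 in place of -0.41, Ier2 at -0.85 and Fosl2 at -0.51 in place of -0.30. Of the 6 members, Egr1 and Ier2 thus stay past the fold without these cells, and Fosl2 passes it. For anti-VLA4, 6 of 9 were past the fold downward (13.3% of genes), with Egr1 at -1.83, Fosb at -1.61, Atf3 at -1.60, Fos at -0.82, Fosl2 at -0.81 and Jun at -0.63. For anti-VCAM1, 2 were past it downward (12.9% of genes), Fosb at -1.54 and Fosl2 at -0.92, and 1 upward (8.26%), Atf3 at 1.37. No member was past it upward for stroke isotype over sham (9.83% of genes) or for anti-VLA4 (5.93%). Egr3, with 4, 11, 0 and 7 UMIs, had too few for a ratio.

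Microglial RNA moved with several of these values. Defining microglial markers were at 1312, 299, 736 and 132 CPM in T cell-like cells, or 26.8%, 6.42%, 14.8% and 2.68% of their microglia-like level, and the 3 cells with most of them held 47.2% to 69.8% of those UMIs. The 10 T cell-like cells with most Atf3 held 96.6% to 100% of its UMIs in each library. Atf3, at 185, 125, 324 and 40.6 CPM, was high in the libraries with more microglial markers. Fosl2, whose microglia-like level of 10.0 to 15.3 CPM is below that of T cell-like cells, was at 156, 126, 65.9 and 71.6 CPM, and so was lower in both antibody libraries. At the marker share, microglial Fos would be 444, 97.4, 147 and 23.6 CPM, where 438, 329, 292 and 186 were measured. For Atf3 it would be 374, 96.0, 157 and 22.4 CPM. For Egr1 it would be 292, 47.3, 74.1 and 8.25 CPM, where 400.2, 91.8, 79.1 and 25.0 were measured. In anti-VCAM1 the measured Egr1 did not exceed that level beyond counting error. With all cells counted, Fos and Atf3 in sham isotype also did not exceed the level at the marker share. That share depends on the shared-barcode cells. Without them the defining markers were at 517 CPM in sham isotype T cell-like cells, Fos at 335 CPM and Atf3 at 96.9 CPM. The part of microglial RNA in these and the other T cell-like values was not tested.

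**Figure D5:**
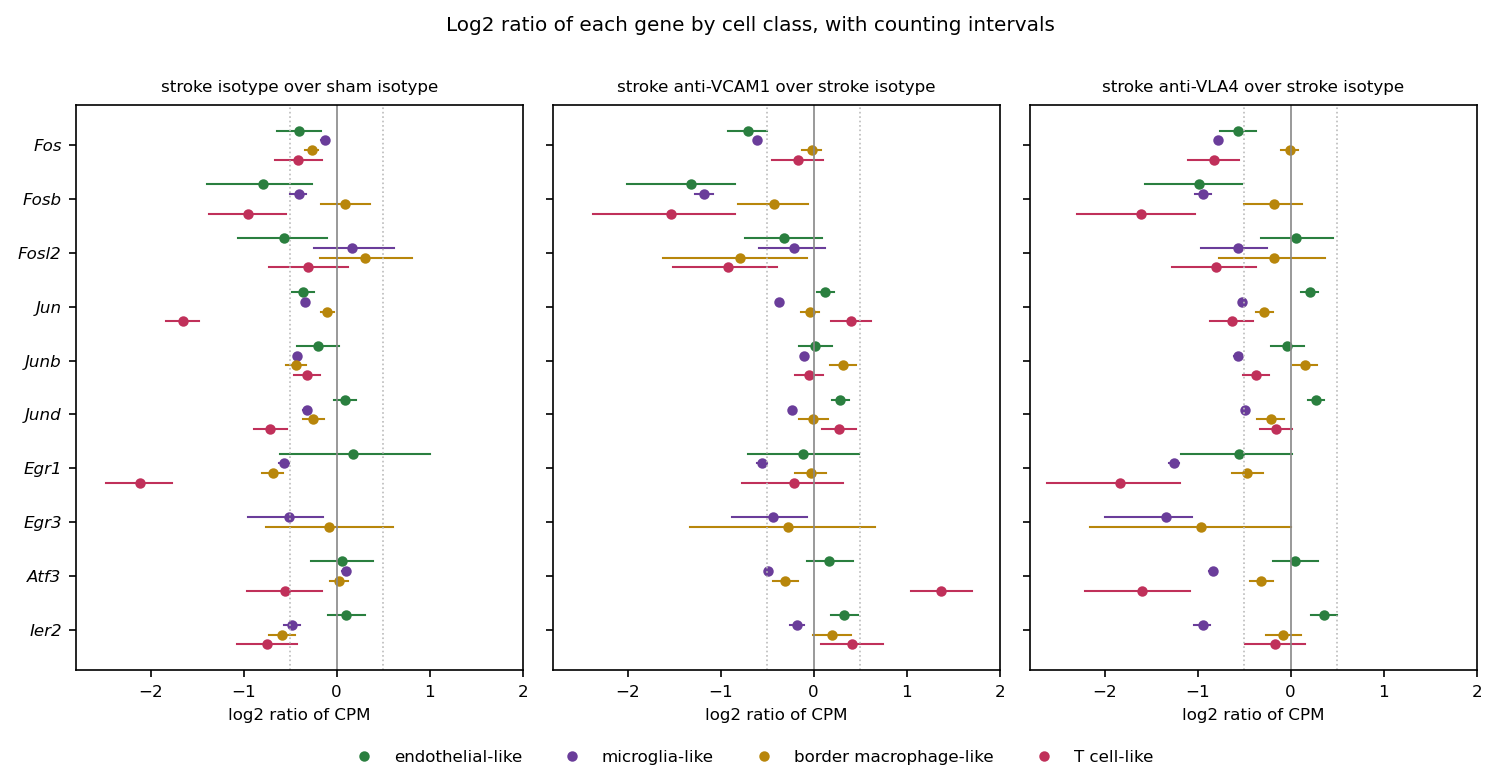
Log2 ratio of CPM of each member (x axis) in the 3 comparisons, 1 point per class with a 95% conditional binomial interval for counting error; dotted lines mark 0.5 and -0.5. For anti-VLA4, microglia-like points lie between -1.34 and -0.49, while endothelial-like points run from Fosb at -0.98 to Ier2 at 0.35.

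Over the 16 sums of 4 classes and 4 libraries, the genes with the pattern most like a member differed from member to member, by Pearson's r of log2(CPM + 1). Nrros was nearest to Fos (r = 0.984), Nlrp3, an inflammasome sensor, to Egr1 (0.987), Ctsb, a lysosomal protease, to Atf3 (0.986), Rtn4 to Jun (0.992) and Fgd3 to Junb (0.987). Ptbp3 was nearest to Fosb (0.967), Kctd12 to Jund (0.960), Ccnd2, cyclin D2, to Fosl2 (0.944), H3f3b to Ier2 (0.936) and Epc1 to Egr3 (0.908). Between members, r was 0.967 for Fos and Egr1, 0.95 for Jun and Jund, 0.004 for Fos and Fosl2 and -0.373 for Fosl2 and Jund. These 16 points share libraries, depth and class, and mostly describe the differences between classes.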

How the data were processed

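The deposited matrices hold raw UMI counts per gene and cell. Their headers name Cell Ranger 7.0.1. The submitters' processing notes list Cell Ranger 6.0.0, Seurat 4.3.0.1, mm10 and GRCh38. Cells with at least 500 UMIs, 200 genes and at most 10% mitochondrial UMIs were kept, and doublets called by scrublet (expected rate 0.05; 9, 24, 58 and 124 cells) were removed. With scanpy 1.11.5 and Python 3.11.15, 2000 variable genes, 30 components and 15 neighbours gave Leiden clusters (resolution 1), without the members and related lists. A cluster was named where at least 3 markers of a type were detected in 25% of its cells with a log2 fold of 1, and no other type's markers led it. B cell, NK cell, astrocyte, pericyte, plasma cell and unnamed clusters were not compared.

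Counts were summed per class and library. All 10 members are named in every class; of the other lists, up to 3 genes with the largest ratio and at least 200 UMIs are named, and for likeness the nearest of 3 genes found. The members and lists were chosen with earlier results of these data known. The trend over genomic span is a running median over 501 genes. The log2 ratio and its counting interval were tested on simulated Poisson counts. That simulation did not cover clustering, naming, thinning, the cluster mix or uneven counts between cells. Alternatives cover the cell filter, doublets, clustering, scaling, pseudocount, cluster mix, span and single cells. Nothing in the labels pairs mice between libraries.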

Additional observations from a re-analysis of the deposited data

Results flagged for a closer look

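Jun, Jund and Ier2 stood higher with the antibodies in endothelial-like cells and lower in microglia-like cells of the same libraries. The difference between the classes, endothelial-like log2 ratio minus microglia-like log2 ratio, was 0.50 for Jun (0.13 against -0.38), 0.52 for Jund (0.29 against -0.23) and 0.50 for Ier2 (0.33 against -0.18) with anti-VCAM1. With anti-VLA4 it was 0.73 for Jun (0.21 against -0.52), 0.76 for Jund (0.27 against -0.49) and 1.30 for Ier2 (0.35 against -0.95). With 1 library per group these differences were not tested, and both comparisons use the same stroke isotype library. In endothelial-like cells the ratios of the 3 genes lay between -0.15 and 0.06 once the span trend was removed. In microglia-like cells with the cluster mix held fixed, the ratios were -0.20 (Jun), -0.10 (Jund) and 0.11 (Ier2) for anti-VCAM1, and -0.14, -0.25 and -0.30 for anti-VLA4.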

How the results depend on the processing

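Of 114 member ratios, 40 were past the fold; 36 of these kept their sign in every alternative run and 13 (6 T cell-like, 2 border macrophage-like, 2 endothelial-like, 3 microglia-like) stayed past it. The sign turned for Atf3 in T cell-like cells, stroke isotype over sham (5.18 thinned to 1000 UMIs, which leaves no Atf3 UMI in sham isotype and so gives no fold, 0.39 without shared barcodes), for Fosb there (0.12 without shared barcodes, 0.27 without the highest 3 cells), for Egr3 in microglia-like cells, stroke isotype over sham (0.33 thinned), and for Egr1 in endothelial-like cells, anti-VLA4 (1.32 thinned, 0.69 as a mean over cells, 0.25 without the highest 3 cells). Counts of members past the fold moved as follows. Stroke isotype over sham, endothelial-like (2): 0 thinned, 0 at a log2 ratio of 1, 1 with a pseudocount of 10 CPM, as a mean over cells, without shared barcodes or without the highest 3 cells, 4 with the span trend removed, 5 with cells named on their own markers or the arterial cluster added. The same comparison in microglia-like cells (2): 0 at a log2 ratio of 1, and 1 thinned, with doublets kept, with the median set to 0, with mitochondrial, ribosomal, haemoglobin genes and Malat1 out of the total, with a pseudocount of 10, as a mean over cells, and without the highest cell, the highest 3 cells or shared barcodes. Anti-VCAM1: endothelial-like (2, both downward) 2 thinned, both upward, 3 as a mean over cells (1 upward, 2 downward), 1 at a log2 ratio of 1 and 4 with the arterial cluster; microglia-like (3) 5 with doublets kept or the span trend removed, and 1 with the cluster mix fixed or at a log2 ratio of 1. Anti-VLA4: endothelial-like (3, all downward) 2 thinned, both upward, 4 as a mean over cells (2 upward, 2 downward), 1 without the highest cell or 3 cells and 0 at a log2 ratio of 1; microglia-like (9) 1 with the cluster mix fixed and 2 at a log2 ratio of 1. For fewer cells and a stricter ratio the construction gives the lower count; otherwise the cause was not tested. Leaving out clusters low in Malat1, shared barcodes, the highest 3 cells and adding the arterial cluster were chosen after seeing the data. No paired analysis was possible because each group has 1 library. Depth limits Egr3, Fosb and Egr1 in endothelial-like cells and all members in T cell-like cells.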
